A study of Arabidopsis thaliana with 18 samples.

Results

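The tandem cluster of SAUR61 to SAUR68 is a run of 8 SMALL AUXIN UP RNA (SAUR) genes on chromosome 1 of Arabidopsis thaliana. Its members were taken by locus ID: SAUR61 (AT1G29420), SAUR62 (AT1G29430), SAUR63 (AT1G29440), SAUR64 (AT1G29450), SAUR65 (AT1G29460), SAUR68 (AT1G29490), SAUR66 (AT1G29500) and SAUR67 (AT1G29510). All 8 were found among the 27371 genes of the expression table, which also holds 72 other SAUR genes. The cluster was chosen because of its values in this table, so the levels and differences of its members are a description, without p-values, and are not independent evidence of a response.

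Expression was measured by RNA-Seq of polyA RNA from Col-0 plants in 18 libraries, 3 biological replicates in each of 6 groups. Every group, WT controls included, was germinated for 5 days, spent 16 days on medium with 100 mM NaCl and was harvested at 21 days. Roots came from plants given 100 nM ACC, the compound that plants oxidise to ethylene, or 100 nM KMBA, a keto acid related to methionine. Shoots came from ACC plants, KMBA plants, plants colonised by SA187, an Enterobacter strain that lives inside roots, and WT plants with neither bacterium nor compound. The roots of WT and SA187 plants were not analysed here. Values are FPKM, fragments scaled to transcript length and to the mapped fragments of the library, so levels of different genes can be compared per length, while the number of reads behind a value is unknown.

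SAUR genes are early auxin-induced genes with short, unstable mRNAs. Their proteins inhibit the clade D type 2C protein phosphatases (PP2C.D), which keeps plasma membrane proton pumps (AHA proteins) active, acidifies the cell wall and lets cells expand. The SAUR63 group, to which the cluster belongs, is known for promoting elongation of hypocotyls and stamen filaments, and SAUR62 for a role in pollen tubes. Auxin response factors such as ARF6 and ARF8, the light-regulated PIF factors and the brassinosteroid-regulated BZR1 are known upstream regulators of SAUR genes.

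In the RefSeq annotation (TAIR10.1) the cluster covered 21.9 kb at chr1:10301377-10323239. SAUR61 to SAUR65 lay on the minus strand, followed by a gap of 11485 nt and then by SAUR68, SAUR66 and SAUR67 on the plus strand. Each gene had 1 uninterrupted coding segment, transcripts were 602 to 968 nt long, and proteins were 102 residues (SAUR68) to 186 residues (SAUR65) long. SAUR62, SAUR63, SAUR64, SAUR66 and SAUR67 shared 73.0 to 86.6% of their residues with each other, whereas SAUR65 shared 59.7 to 61.3%, SAUR61 57.1 to 62.1% and SAUR68 55.1 to 60.1% with these 5. SAUR75 (AT5G27780), a gene elsewhere in the genome, was closer to SAUR62 (93.7% of residues) than any cluster member was.

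This similarity bears on the measurement. Of all 100-base windows of the transcripts, 8.57% in SAUR62, 18.9% in SAUR63 and 21.6% in SAUR67 occurred elsewhere in the genome and 0 in the other 5 members, so reads may have been split between these genes. AT1G29435 lies antisense to SAUR63 and the noncoding gene AT1G06257 antisense to SAUR61. The sources used here do not say whether counting used strand, so reads of these overlapping genes cannot be told apart.

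**Figure D1:**
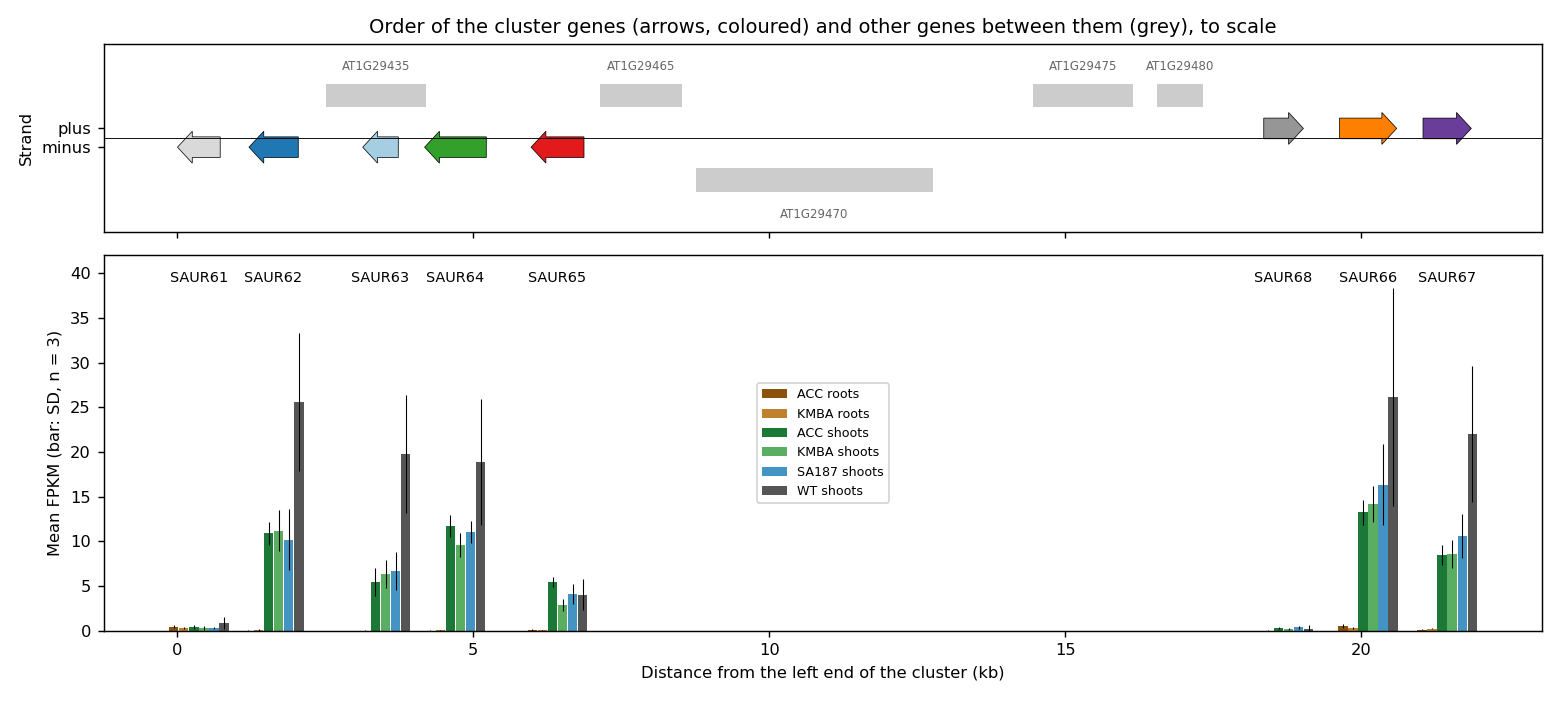
Position of the 8 cluster genes (upper panel, arrows in the direction of transcription, distance in kb from the left end of the cluster, other genes in grey) above the mean FPKM of each gene in each of the 6 groups (lower panel, bars show the SD, n = 3). SAUR62, SAUR63, SAUR64, SAUR66 and SAUR67 carried most of the signal on both sides of the gap, WT bars were the highest in these 5 genes, and root bars were near 0.

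A hexamer was found upstream of all 8 members. It was CATGTG, an E-box variant read on both strands (CACATG on the other), and it lay within 250 bases upstream of the annotated start of 8 of 8 members, against 11.2% of 26693 promoters of that length and 24 of the 72 other SAUR genes (33.3%). The 30 bases around 1 such site in each member are given to show the letters beside the hexamer. Other stretches of the 250 bases were also alike between members and were not counted. They are written 5′ to 3′ on the strand of the gene from the RefSeq TAIR10.1 genome, with the hexamer in capitals, and where a member had several sites the one most like those of the other members was taken.
SAUR61 (chr1:10302197-10302226, minus strand): tacctaaatcCACATGgtcaagtattttca
SAUR62 (chr1:10303508-10303537, minus strand): aatttataccCACATGatcatgtcttctaa
SAUR63 (chr1:10305282-10305311, minus strand): ggttcataccCACATGatcatgtcttctca
SAUR64 (chr1:10306671-10306700, minus strand): gattcatactCACATGgtcatgtcttctca
SAUR65 (chr1:10308331-10308360, minus strand): ttaataccccCACATGgtcatgtttcttct
SAUR68 (chr1:10319528-10319557, plus strand): taatcgtatcCACATGatcacgccttttcc
SAUR66 (chr1:10320965-10320994, plus strand): ttttgataccCACATGatcatgtcttctca
SAUR67 (chr1:10322371-10322400, plus strand): gattcataccCACATGatcttgtcttctca

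The hexamer began between 36 bases (SAUR66) and 194 bases (SAUR68) before the annotated start. SAUR62, SAUR63, SAUR64, SAUR66 and SAUR67 were identical to each other at 25 to 28 of the 30 positions, while SAUR65 matched these 5 at 17 to 20, SAUR61 at 19 to 20 and SAUR68 at 20 to 21. Over all 8 members 11 of the 30 positions were equal, 5 of them outside the hexamer. TGTCTC, the auxin response element, was found upstream of 3 members (SAUR62, SAUR66 and SAUR67; 10.9% of all promoters), TGTCGG upstream of SAUR63 alone (4.2%), TATAAA upstream of 5 (47.7%), and the G-box CACGTG and the brassinosteroid response elements CGTGTG and CGTGCG upstream of 0 (6.6, 5.4 and 1.6%). TGTC, the 4-letter core of the auxin response element and part of TGTCTC and TGTCGG, was found upstream of 8 members and of 74.8% of all promoters. All motifs were read on both strands, and a match is a description of letters, not a binding site.

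The full 250 bases upstream are given for SAUR62 (chr1:10303419-10303668, minus strand) and SAUR65 (chr1:10308247-10308496, minus strand), since these members of the minus-strand block behaved differently in shoots. Capitals mark CATGTG or CACATG and TGTCTC, and the last base is the one before the annotated start.
SAUR62: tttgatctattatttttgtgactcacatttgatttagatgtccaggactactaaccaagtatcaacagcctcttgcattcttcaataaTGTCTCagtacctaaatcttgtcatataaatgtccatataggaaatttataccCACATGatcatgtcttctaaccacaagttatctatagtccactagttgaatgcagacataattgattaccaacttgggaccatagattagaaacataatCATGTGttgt
SAUR65: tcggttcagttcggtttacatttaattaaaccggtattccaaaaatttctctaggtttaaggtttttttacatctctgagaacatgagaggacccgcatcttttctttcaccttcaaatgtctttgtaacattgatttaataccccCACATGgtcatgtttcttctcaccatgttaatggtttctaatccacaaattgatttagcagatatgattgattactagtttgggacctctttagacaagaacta

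The libraries set a limit on every comparison with WT. WT replicates 1 and 3 stood apart from the other shoots, at 38.5 and 66.6 on the first principal component (38.7% of variance), against 9.46 in WT replicate 2 and -24.9 to 6.37 in the other 9 shoot libraries. In these 2 libraries short transcripts read high: genes of 600 to 1000 nt, the class of the cluster transcripts, lay 0.12 and 0.46 above their shoot mean (median, log2 scale) in WT replicates 1 and 3, against -0.04 in WT replicate 2 and -0.19 to -0.01 in the other shoots. Replicates of WT correlated across genes at Pearson r of 0.957 to 0.979, those of the other groups at 0.985 to 0.993. Library sums lay between 357506 and 633792 FPKM, and 14470 to 17212 genes reached 1 FPKM.

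Roots and shoots matched their markers. Of 6 leaf photosynthesis markers, 6 were called lower in roots than in shoots of the same treatment, and of 6 root markers 6 were called higher. Of 6 flower markers none reached a group mean above 0.0771 FPKM in any shoot group, where that value is PISTILLATA in WT. Fewer cells of a type and less RNA per cell cannot be told apart in such bulk samples.

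The cluster was expressed in shoots and nearly silent in roots. Its summed level was 1.17, 1.45 and 1.02 FPKM in ACC roots and 1.32, 1.26 and 0.647 FPKM in KMBA roots. In shoots it was 53.3, 52.5 and 62.6 FPKM with ACC, 42.6, 57.9 and 59.3 FPKM with KMBA, 69.0, 42.6 and 67.4 FPKM with SA187 and 118, 75.1 and 159 FPKM in WT (replicates 1, 2 and 3). The lowest WT library was thus above the highest library of the other shoot groups, and the mean sums with ACC, KMBA and SA187 were 47.7, 45.3 and 50.8% of the WT mean.

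Within the shoots 6 members were well above the other 2. SAUR66, SAUR62, SAUR64, SAUR67 and SAUR63 had group means between 5.45 and 26.1 FPKM. SAUR65 had group means of 2.85 to 5.45 FPKM and ranked below these 5 in KMBA, SA187 and WT shoots, but above SAUR63 in ACC replicates 2 and 3. SAUR61 and SAUR68 stayed at group means of 0.183 to 0.864 FPKM, below the 1 FPKM in at least 3 libraries that a gene needed to be tested, so 6 of the 8 members were tested in shoots. SAUR66 ranked first of the 8 in 10 of the 12 shoot libraries, the exceptions being WT replicates 1 and 2, where SAUR62 was first.

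**Figure D2:**
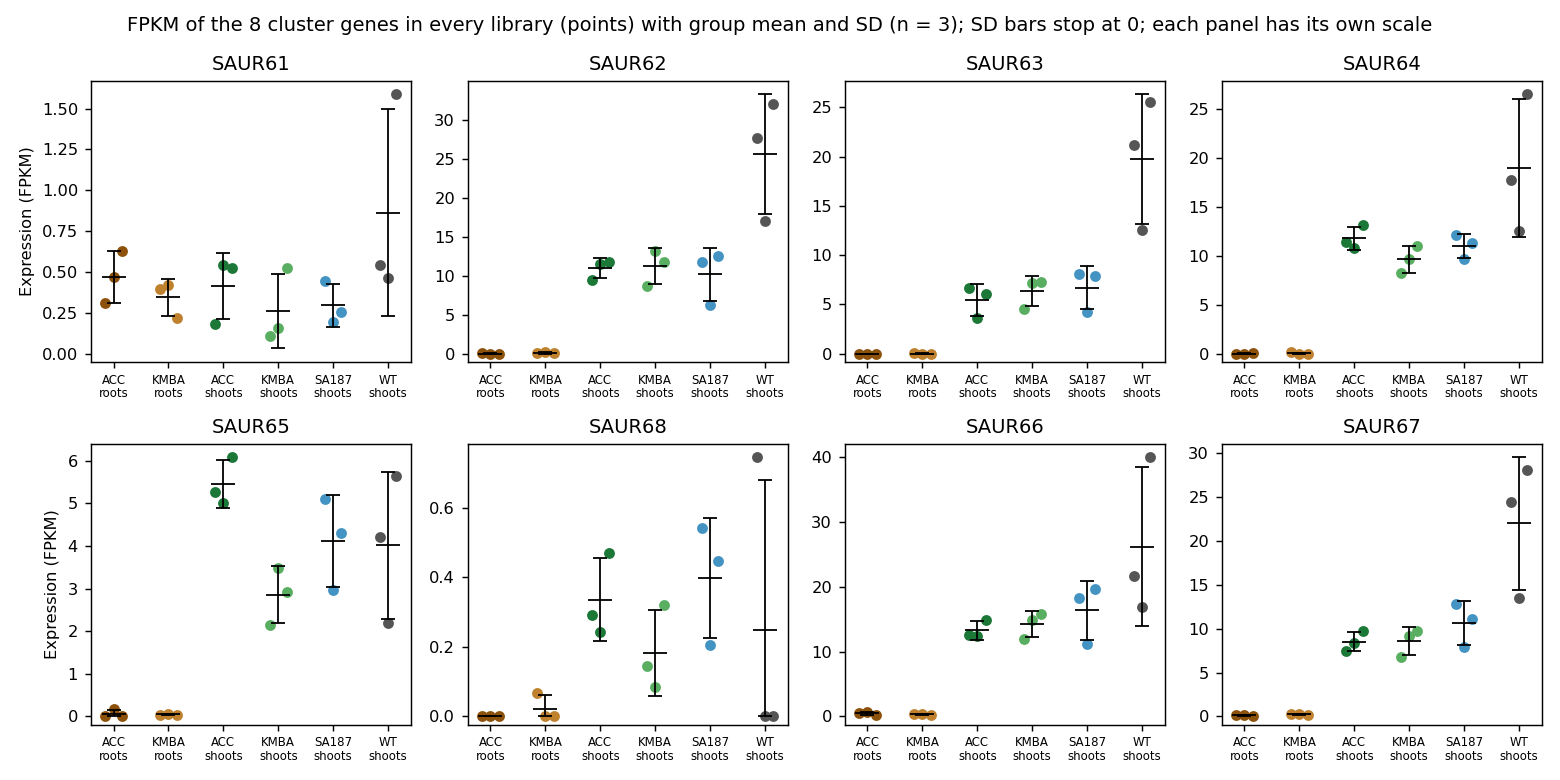
FPKM of the 8 cluster genes (1 panel each, with its own scale) in every library, as points, with the group mean and SD (n = 3). WT replicate 2 was the lowest WT library for each gene (for SAUR68 together with replicate 3, at 0), SAUR65 had its highest mean with ACC, and the root and shoot values of SAUR61 overlapped with each compound.

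SAUR63, which gives its group its name, showed the largest difference from WT with each of ACC, KMBA and SA187 among the 6 tested members. It had 6.67, 3.67 and 6.01 FPKM in ACC shoots, 4.55, 7.22 and 7.30 FPKM in KMBA shoots and 8.07, 4.23 and 7.84 FPKM in SA187 shoots, against 21.1, 12.6 and 25.6 FPKM in WT shoots. No library of these 3 groups reached the lowest WT library. On the log2(FPKM + 1) scale the difference from WT was -1.66 with ACC, -1.46 with KMBA and -1.42 with SA187 (SE 0.29).

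SAUR62, which is known from pollen tubes, had 9.45, 11.5 and 11.8 FPKM in ACC shoots, 8.66, 13.2 and 11.8 FPKM in KMBA shoots and 11.7, 6.27 and 12.6 FPKM in SA187 shoots, against 27.7, 17.1 and 32.0 FPKM in WT shoots. Again no library of the 3 groups overlapped WT, and the 3 groups overlapped each other. The log2 difference was -1.12, -1.1 and -1.26 with ACC, KMBA and SA187 (SE 0.26).

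SAUR67, the plus-strand member closest to SAUR63 in protein sequence (86.3%), had 7.51, 8.35 and 9.73 FPKM in ACC shoots, 6.76, 9.19 and 9.77 FPKM in KMBA shoots and 12.8, 7.89 and 11.1 FPKM in SA187 shoots, against 24.5, 13.5 and 28.1 FPKM in WT shoots. Its log2 difference was -1.22 with ACC, -1.22 with KMBA and -0.95 with SA187 (SE 0.25), and the first SA187 library lay just under the second WT library.

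SAUR64 and SAUR66 differed less from WT. SAUR64 had 11.4, 10.7 and 13.1 FPKM in ACC shoots, 8.25, 9.64 and 10.9 FPKM in KMBA shoots and 12.1, 9.68 and 11.3 FPKM in SA187 shoots, against 17.8, 12.5 and 26.5 FPKM in WT shoots (log2 difference -0.59, -0.86 and -0.67, SE 0.21). SAUR66 had 12.5, 12.4 and 14.9 FPKM in ACC shoots, 11.97, 14.9 and 15.7 FPKM in KMBA shoots and 18.2, 11.2 and 19.7 FPKM in SA187 shoots, against 21.6, 16.8 and 40.02 FPKM in WT shoots (log2 difference -0.84, -0.75 and -0.59, SE 0.27). SAUR64 with ACC and SAUR66 with SA187 overlapped WT, and neither gene reached a 2-fold difference.

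SAUR65 was the exception among the expressed members. It had 5.26, 5.01 and 6.09 FPKM in ACC shoots, 2.15, 3.48 and 2.92 FPKM in KMBA shoots and 5.09, 2.96 and 4.29 FPKM in SA187 shoots, against 4.2, 2.2 and 5.64 FPKM in WT shoots. All 3 groups overlapped WT, and the log2 difference from WT was 0.42 with ACC, -0.33 with KMBA and 0.07 with SA187 (SE 0.24). With KMBA its sign turned to 0.19 once the length and GC dependence was subtracted, and to 0.25 with WT replicate 2 as the only WT library.

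The weakly expressed members did not share a pattern. SAUR61 had 0.182, 0.543 and 0.522 FPKM in ACC shoots, 0.107, 0.156 and 0.524 FPKM in KMBA shoots and 0.446, 0.193 and 0.253 FPKM in SA187 shoots, against 0.540, 0.462 and 1.59 FPKM in WT shoots. With SA187 it lay just below all WT libraries, and ACC and KMBA overlapped WT. SAUR68, the member with the shortest protein, was listed at 0 in WT replicates 2 and 3 and had 0.748 FPKM in WT replicate 1, which lay above the 0.0834 to 0.542 FPKM of the 9 other shoot libraries.

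Counted over the cluster with limma and Benjamini-Hochberg adjustment over all 15724 tested genes, 3 of 6 tested members were called lower with ACC (SAUR62, SAUR63 and SAUR67), 3 with KMBA (the same genes) and 2 with SA187 (SAUR62 and SAUR63). A call needed an adjusted p under 0.05 and a fold over 2, and 2.91, 2.43 and 1.38% of all tested genes were called lower in these comparisons. Every library below every WT library was seen in 4, 5 and 4 of the 6 tested members with ACC, KMBA and SA187, and in 17.0, 17.8 and 14.0% of all tested genes. The 3 comparisons share the WT libraries, and since the cluster was chosen from these values nothing is read from the counts.

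These counts changed with the processing and with the libraries used. In the 1833 tested genes of 600 to 1000 nt the median log2 difference from WT was -0.23, -0.29 and -0.21 with ACC, KMBA and SA187. When the dependence on transcript length and GC content was subtracted from every library, 1, 0 and 0 members were called (SAUR63 with ACC), and SAUR63 differed by -1.16, -0.94 and -0.98, SAUR62 by -0.60, -0.58 and -0.82. With WT replicate 2 as the only WT library, a setting added after the data were seen in which that library is assumed to vary like the others, 0 members were called lower and 1 higher, SAUR65 with ACC at 1.01, while SAUR63 differed by -1.1, -0.91 and -0.86. Leaving out 1 library at a time gave 2 to 4 members called with ACC, 2 to 5 with KMBA and 0 to 3 with SA187. Without WT replicate 1, without WT replicate 3, or without SA187 replicate 2 or 3, the SA187 count was 0, as it was with only the SA187 and WT libraries in the fit, and without WT replicate 2 the KMBA count was 5. In the full fit and in these first 2 settings SAUR63 had the most negative difference of the 6 tested members and SAUR65 the most positive. LHCB3, a light-harvesting protein and 1 of 6 leaf markers, was also called lower in each comparison with WT, at 263.5 to 309 FPKM with ACC, 270.1 to 307.1 FPKM with KMBA and 183.2 to 248.8 FPKM with SA187, against 443.2 to 894.6 FPKM in WT. With the length and GC dependence subtracted LHCB3 was still called lower with ACC, KMBA and SA187, at -1.25, -1.15 and -1.64. With WT replicate 2 as the only WT library LHCB3 differed by -0.61, -0.59 and -1.04 with ACC, KMBA and SA187. Of the 6 leaf markers, however, 4 had a positive difference from WT in each comparison, with medians of 0.39, 0.43 and 0.54 with ACC, KMBA and SA187, and 0 were called higher. ACC shoot replicates 2 and 3 and KMBA shoot replicate 3 were sequenced in pool 3 and all other shoot libraries in pool 1, and with the pool as a covariate 3, 3 and 2 members were called. The part of these library and marker differences in the values of the cluster was not tested.

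**Figure D3:**
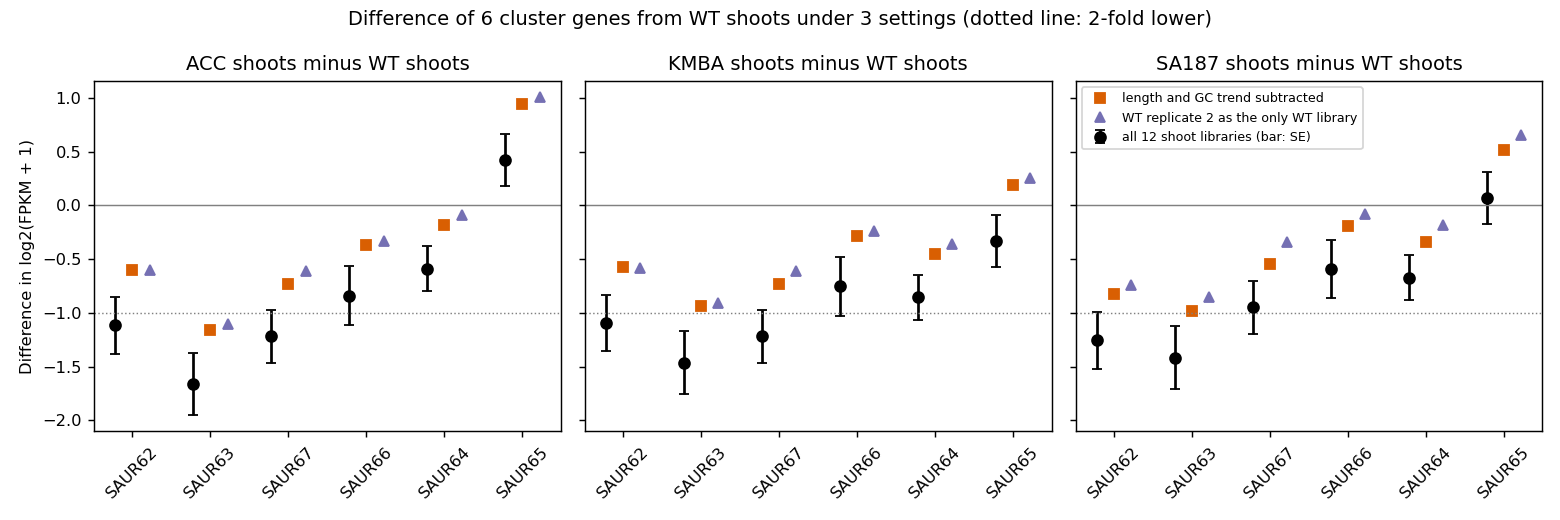
Difference in log2(FPKM + 1) of the 6 tested cluster genes from WT shoots, for ACC, KMBA and SA187 shoots (panels), from all 12 shoot libraries with its SE (circles), after subtraction of the length and GC trend (squares) and with WT replicate 2 as the only WT library (triangles). The SE comes from a spread shared by all shoot groups and may be too small for WT. Squares and triangles lay above the circles for every gene, from -1.16 (SAUR63 with ACC, squares) to 1.01 (SAUR65 with ACC, triangles).

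The make-up of the cluster can be read within a library, where a shift shared equally by all members cancels. A shift that depends on transcript length does not cancel, and SAUR63 (602 nt) is shorter than SAUR65 (895 nt). The part of such a shift in the shares was not tested. SAUR65 held 9.87, 9.55 and 9.73% of the cluster's summed FPKM in ACC shoots, 5.04, 6 and 4.93% in KMBA shoots and 7.38, 6.95 and 6.37% in SA187 shoots, against 3.55, 2.93 and 3.54% in WT shoots. The 4 groups did not overlap. SAUR65 itself averaged 4.01 FPKM in WT and 4.12 FPKM with SA187, so between these groups its share rose through the lower sum (118 and 59.7 FPKM). SAUR63 moved the other way, with 12.5, 6.98 and 9.60% in ACC shoots, 10.7, 12.5 and 12.3% in KMBA shoots and 11.7, 9.93 and 11.6% in SA187 shoots, against 17.9, 16.7 and 16.0% in WT shoots.

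The ratio of SAUR65 to SAUR64 compares transcripts of nearly equal length, 895 and 893 nt, but not of equal GC content, 35.6 and 37.8%. A shift that depends on GC content would not cancel in it, and the part of such a shift was not tested. This ratio was picked after the values were seen. It was 0.460, 0.467 and 0.466 in ACC shoots, 0.26, 0.36 and 0.267 in KMBA shoots and 0.421, 0.306 and 0.381 in SA187 shoots, against 0.237, 0.175 and 0.213 in WT shoots. Each of the 3 groups lay above all WT libraries, and ACC lay above all other shoots. Against SAUR63, the ratio was 0.788 to 1.37 with ACC, 0.401 to 0.481 with KMBA, 0.548 to 0.700 with SA187 and 0.175 to 0.221 in WT.

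**Figure D4:**
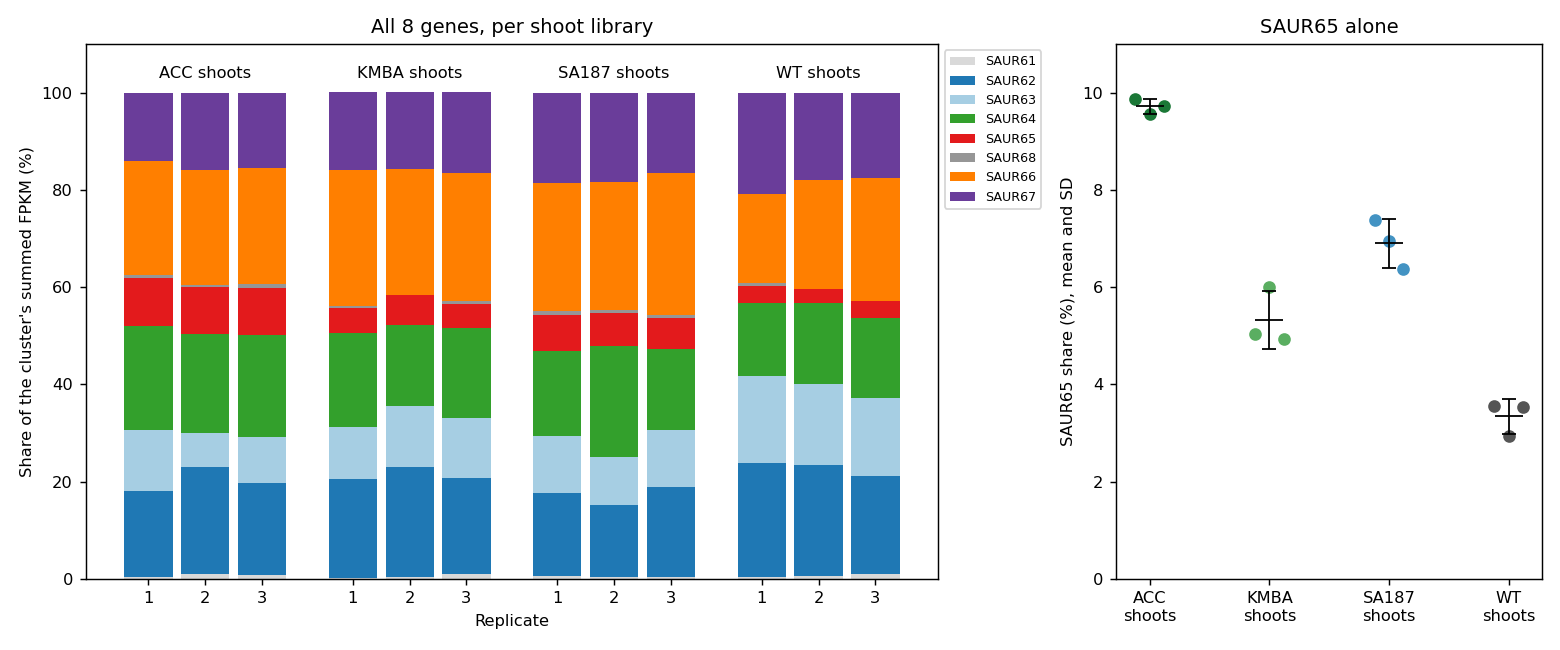
Share of the cluster's summed FPKM held by each of the 8 genes in each of the 12 shoot libraries (left, stacked bars of 100%) and by SAUR65 alone (right, points are libraries, lines the mean and SD, n = 3). SAUR65 took 9.55 to 9.87% with ACC, 4.93 to 6% with KMBA, 6.37 to 7.38% with SA187 and 2.93 to 3.55% in WT.

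The same division appeared in correlations over the shoot libraries, which pool the shoot groups and so take in the group differences given above. Within each shoot group, however, the library with the lowest SAUR65 value was also the one with the lowest cluster sum. Over the 12 shoot libraries the Pearson r of log2(FPKM + 1) was 0.878 to 0.951 for the 10 pairs among SAUR62, SAUR63, SAUR64, SAUR66 and SAUR67. SAUR65 correlated with these 5 at 0.178 to 0.510, and with the mean of the 7 other members at 0.366. SAUR61 correlated with the mean of the others at 0.806 in spite of its low level, and SAUR68 at 0.0443. Over all 18 libraries, where the root and shoot contrast enters, SAUR65 correlated with the 5 genes at 0.905 to 0.967. These libraries share the WT replicates that stood apart, and SAUR62, SAUR63 and SAUR67 may share reads with each other or with other copies. The correlations are therefore a description.

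**Figure D5:**
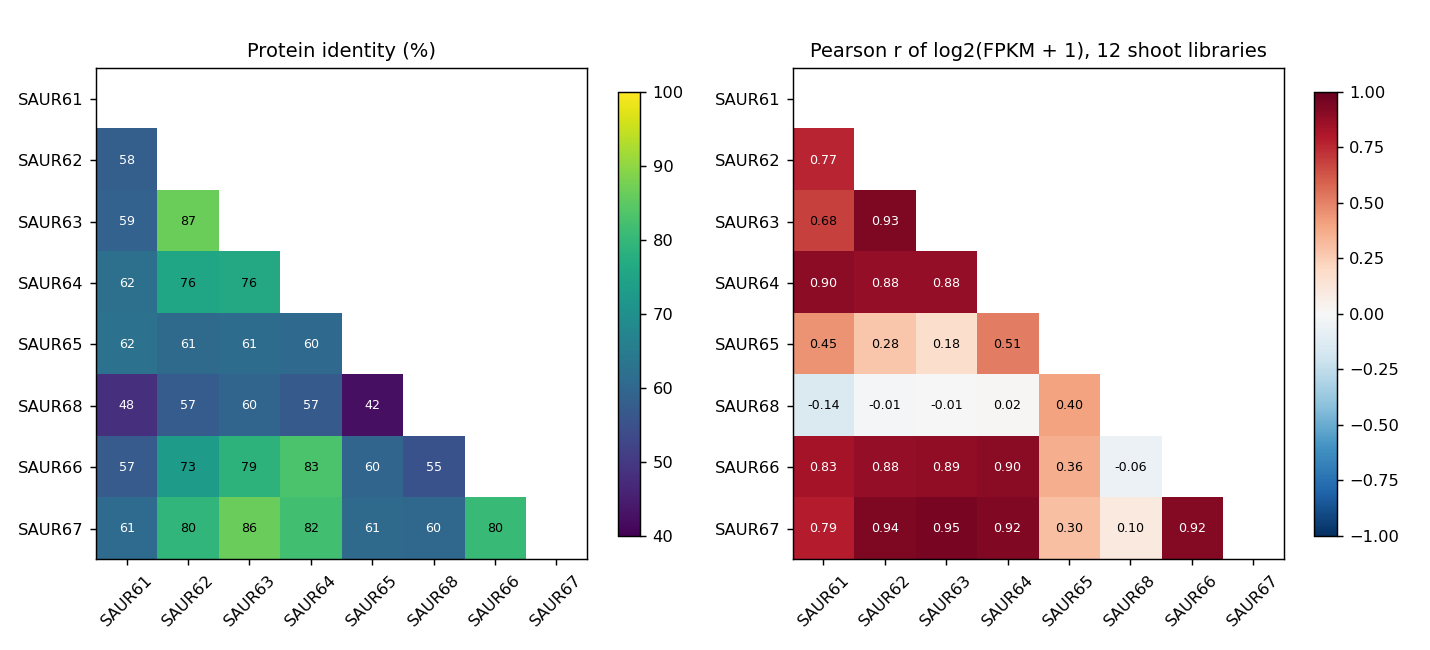
Protein identity in percent (left) and Pearson r of log2(FPKM + 1) over the 12 shoot libraries (right) for the 28 pairs of cluster genes. SAUR62, SAUR63, SAUR64, SAUR66 and SAUR67 were alike in both panels, at 73.0 to 86.6% identity and r of 0.878 to 0.951, while SAUR65 had 59.7 to 61.3% and r of 0.178 to 0.510 with them. The panels did not run together for SAUR61, which had 57.1 to 62.1% but r of 0.682 to 0.896 with these 5. SAUR68 had 55.1 to 60.1% and r of -0.0576 to 0.097. Both were weakly expressed.

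Among ACC, KMBA and SA187 shoots no member was called. With limma, 0 of 6 tested members were called for ACC against KMBA, 0 for ACC against SA187 and 0 for KMBA against SA187, where 0.795, 1.77 and 0% of all tested genes were called. At an unadjusted p under 0.05 the members numbered 1, 0 and 0, and all tested genes 2573, 4184 and 741. These were 16.4, 26.6 and 4.71% of all tested genes, so nothing is read from a count of 1 among 6. The 1 member was SAUR65, at 5.01 to 6.09 FPKM with ACC, against 2.15 to 3.48 FPKM with KMBA, a log2 difference of 0.76 (SE 0.24) with no overlap. The other 5 tested members overlapped in all 3 comparisons, with log2 differences between -0.27 and 0.27 (SE 0.21 to 0.29). SAUR65 with SA187 overlapped both, at 0.35 for ACC against SA187 and -0.40 for KMBA against SA187 (SE 0.24).

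In roots the expressed members were far lower than in shoots of the same treatment. SAUR63 was listed at 0 in all ACC roots and in KMBA roots 2 and 3, with 0.0384 FPKM in KMBA root 1, and SAUR68 was likewise listed at 0 in all ACC roots. SAUR62 had 0.0559, 0 and 0 FPKM in ACC roots and 0.0311, 0.177 and 0.0387 FPKM in KMBA roots. SAUR64 had 0, 0 and 0.0615 FPKM in ACC roots and 0.135, 0 and 0 FPKM in KMBA roots, and SAUR65 had 0, 0.177 and 0 FPKM in ACC roots and 0.0350, 0.0661 and 0.0433 FPKM in KMBA roots. Values of this size are at the bottom of the scale, and an exact 0 in an FPKM table may be a failed estimate.

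Only SAUR66, SAUR67 and SAUR61 were above 0 in every root library. SAUR66, the most expressed member in shoots, had 0.602, 0.681 and 0.233 FPKM in ACC roots and 0.402, 0.316 and 0.166 FPKM in KMBA roots. SAUR67 had 0.200, 0.125 and 0.102 FPKM in ACC roots and 0.222, 0.279 and 0.183 FPKM in KMBA roots. SAUR61 had 0.310, 0.467 and 0.627 FPKM in ACC roots and 0.395, 0.422 and 0.217 FPKM in KMBA roots, which overlapped its shoot values with the same compounds, and it made up 26.5 to 61.2% of the cluster's root sum.

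Over the 12 ACC and KMBA libraries 6 of 8 members passed the filter, all through their shoot values. Of these, 6 were called lower in roots with ACC and 6 with KMBA. Of 18357 tested genes, 13.9 and 13.5% were called lower. A gene that enters through its shoot values alone can hardly be called other than lower in roots, so nothing is read from these counts. The log2 differences ran from -3.64 (SAUR64) to -2.61 (SAUR65) with ACC and from -3.55 (SAUR66) to -1.86 (SAUR65) with KMBA. On this scale they understate the ratio, and the summed level in roots was 2.16% (ACC) and 2.02% (KMBA) of that in shoots. Each root group was sequenced in a pool of its own, so pool and organ cannot be told apart. The difference between ACC and KMBA itself differed between organs for 1 of the 6 tested members, SAUR65 (-0.75, roots minus shoots), and 10.3% of all tested genes passed the adjusted p alone in that contrast. In roots alone no member reached the filter, so ACC and KMBA roots were not compared for the cluster.

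Other members of the family were called in both directions. Of the 72 other SAUR genes, 47 were tested in shoots, and 3 were called higher and 7 lower with ACC, 1 higher and 5 lower with KMBA, and 1 higher and 3 lower with SA187. Of all tested genes 1.98, 0.655 and 0.235% were called higher and 2.91, 2.43 and 1.38% lower in these comparisons. Their median log2 difference from WT was 0.19, -0.32 and -0.45, against -0.98, -0.98 and -0.81 for the 6 tested members. The cluster was chosen for its values, so nothing is read from that contrast. After trend subtraction the medians of the other SAUR genes were 0.47, 0.12 and -0.06 with ACC, KMBA and SA187. The tested members also lay higher in that setting. SAUR71 (AT1G56150) had 19.9, 18.8 and 23.0 FPKM in ACC shoots, 11.7, 6.94 and 9.64 FPKM in KMBA shoots and 6.89, 10.9 and 8.21 FPKM in SA187 shoots, against 2.06, 1.80 and 4.80 FPKM in WT shoots. It was called higher in each comparison (limma adjusted p = 0.000143, 0.00664 and 0.0207), and also after trend subtraction and with WT replicate 2 alone.

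SAUR16 (AT4G38860) was called higher with ACC (40.8, 30.6 and 40 FPKM, against 9.39, 10.5 and 11.8 FPKM in WT, limma adjusted p = 7.6e-05), as was SAUR51 (AT1G75580; log2 difference 1.14, limma adjusted p = 0.00118). SAUR79 (AT2G35290) was called lower in all 3 comparisons, with 13.5, 15.3 and 21.2 FPKM in ACC shoots, 17.7, 32.3 and 21.9 FPKM in KMBA shoots and 23.5, 21.8 and 15.0 FPKM in SA187 shoots, against 96.2, 53.9 and 129 FPKM in WT shoots (limma adjusted p = 0.00045, 0.0052 and 0.0101). After trend subtraction SAUR79 was still called lower with ACC, KMBA and SA187 (log2 difference -2.08, -1.59 and -1.87). With WT replicate 2 as the only WT library it differed by -1.66, -1.18 and -1.4. SAUR75, the near copy of SAUR62, stayed at or below 0.966 FPKM in every library and was not tested.

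In roots against shoots, of 56 other SAUR genes tested, 15 were called higher and 28 lower with ACC, and 17 higher and 24 lower with KMBA. Of all tested genes 22.7 and 24.7% were called higher and 13.9 and 13.5% lower. SAUR14 (AT4G38840) was among the lower ones, with 0.293, 0 and 0.0560 FPKM in ACC roots, against 56.1, 61.9 and 72.4 FPKM in ACC shoots (limma adjusted p = 4.8e-13). SAUR55 (AT5G50760) was among the higher ones, with 75.8, 77.1 and 64.0 FPKM in ACC roots, against 0.0717, 0.534 and 0.385 FPKM in ACC shoots (limma adjusted p = 4.9e-13).

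PP2C.D phosphatases and proton pumps are the proteins through which SAUR proteins act, and 4.89, 3.08 and 1.62% of all tested genes were called in either direction with ACC, KMBA and SA187. At an unadjusted p under 0.05 the shares of all tested genes were 45.3, 37.7 and 26.2%. The unadjusted counts of the lists below stand beside these shares, and nothing is read from them. Of 9 tested PP2C.D phosphatases, 1 was called higher and 1 lower with ACC, and 1 lower each with KMBA and SA187. PP2C-D1 (AT5G02760) was the higher one, at 5.51, 6.78 and 4.6 FPKM with ACC, against 0.982, 2.28 and 1.00 FPKM in WT (limma adjusted p = 0.000334). PP2C-D8 (AT4G33920) was the lower one, at 11.1, 12.3 and 14.4 FPKM with ACC, against 34.9, 17.96 and 31.3 FPKM in WT (limma adjusted p = 0.00343). After trend subtraction it was still called lower with ACC, KMBA and SA187 (log2 difference -1.02, -1.06 and -1.05). With WT replicate 2 as the only WT library it differed by -0.49, -0.55 and -0.59, under 2-fold.

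Of 5 tested proton pumps, AHA2 (AT4G30190) was called higher with ACC, at 31.2, 25.3 and 25.1 FPKM, against 12.7, 15.0 and 8.82 FPKM in WT (limma adjusted p = 0.000877), and 0 with KMBA and SA187 (5 and 3 at an unadjusted p under 0.05). At an adjusted p under 0.05, but under 2-fold, AHA2 (log2 difference 0.65) and AHA11 (0.67) were higher with KMBA. After trend subtraction AHA2 was not called with ACC (0.63), and with WT replicate 2 as the only WT library its difference was 0.81, under 2-fold.

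Upstream, 1 of 11 tested auxin synthesis, receptor and ARF activator genes was called: ARF6 (AT1G30330), a known activator of SAUR genes, at 11.8, 8.71 and 11.1 FPKM with ACC, against 3.71, 5.95 and 3.51 FPKM in WT (limma adjusted p = 0.00085). Trend subtraction left it at 0.56 and WT replicate 2 as the only WT library at 0.72, both under 2-fold. Of 14 other early auxin genes, IAA3 and IAA4, which encode repressors of auxin response, were called lower with ACC (log2 difference -1.27 and -1.17), and 0 were called with KMBA or SA187 (5 and 3 at an unadjusted p under 0.05). Of 12 light, brassinosteroid and growth regulators, PAR1 was called lower with ACC (-1.35) and 0 with KMBA or SA187 (6 and 5 unadjusted). The calls of IAA3, IAA4 and PAR1 did not hold after trend subtraction or with WT replicate 2 alone. Of 12 expansins, wall-loosening proteins of growing cells, EXPA1 (AT1G69530) was called higher with ACC, at 67.2, 50.2 and 61.1 FPKM, against 23.4, 24.0 and 24.6 FPKM in WT (limma adjusted p = 0.000101), also after trend subtraction and with WT replicate 2 alone, and 0 with KMBA or SA187 (4 and 5 unadjusted).

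Of the 12 other genes of the table from AT1G29390 to AT1G29550, 10 were tested in shoots. With limma 0 were called against WT in any of the 3 comparisons. With ACC, KMBA and SA187, 4.89, 3.08 and 1.62% of all tested genes were called, so nothing is read from a count of 0 among 10. At an unadjusted p under 0.05 these neighbours numbered 3, 4 and 7, where 45.3, 37.7 and 26.2% of all tested genes passed. The lowest p was that of AT1G29470, which lies in the gap between the blocks of the cluster, with a log2 difference of 0.94 with ACC (limma adjusted p = 0.000491), under 2-fold and in the opposite direction to SAUR63. AT1G29530, the next by p with ACC, went in the same direction as SAUR63 (-0.84, limma adjusted p = 0.00133). Of the 10 tested neighbours 6 were negative and 4 positive with ACC. In ACC roots against ACC shoots 2 of 11 tested neighbours were called lower and 3 higher, and AT1G29520, which follows the cluster, was called higher (log2 difference 1.75, limma adjusted p = 1.28e-07).

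Among 7719 genes whose shoot mean reached 5 FPKM, the 5 whose levels over the 12 shoot libraries were most like the mean of the 6 tested members were AT4G09890 (Pearson r 0.971), KELP (AT4G10920, a transcriptional coactivator, 0.969), AT3G23620 (0.965), AT5G43150 (0.964) and AT3G45730 (0.963). Each of them had its highest shoot mean in WT, such as 91.6 FPKM for AT4G09890, against 37.1, 39.4 and 44.4 FPKM with ACC, KMBA and SA187. By Spearman's rho AT4G09890 ranked 3 and the other 4 between 44 and 89. An r above 0.9 was reached by 168 genes, and the WT libraries that stood apart enter each of these values.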

How the data were processed

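PolyA RNA was sequenced on a HiSeq 4000. Per the labels, the authors used FastQC 0.11.5, Trimmomatic 0.36, TopHat on TAIR10 and Cufflinks 2.2.1, and their notes also list featureCounts 1.5.1. The deposited FPKM values were made by the authors with Cufflinks, for each gene and library, and the notes name no further scaling. The number of reads per library is unknown, so precision is given by the spread between libraries.

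Samples were grouped by their labels. A gene was tested where 3 or more libraries of the fit reached 1 FPKM. Values were log2(FPKM + 1), a scale that understates changes of low genes, and the test was limma 3.58.1 in R 4.3.3 (moderated for the mean-variance trend, 2-sided). P-values were adjusted by Benjamini-Hochberg over every tested gene. The 12 shoot libraries formed 1 fit, the 6 root libraries another, and the 12 ACC and KMBA libraries a further fit. Each fit used 1 spread per gene for all its groups. SEs and p-values against WT thus do not allow for the wider spread of WT. Genes were called at adjusted p under 0.05 and fold over 2, or adjusted p alone for the organ difference. The procedure was also run on simulated data with normal noise of equal spread in all groups. Those data held no WT libraries that stood apart and no length or GC trend. That run therefore cannot tell how the procedure deals with these features of the WT libraries.

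Sequences, transcript lengths and gene positions came from the RefSeq annotation of TAIR10.1, which matched 26703 of 27371 IDs. The authors' build was TAIR10, and the deposited table holds no coordinates. Identities came from global alignments (Biopython 1.88) of the translated coding sequences.

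Members and lists were chosen with earlier results of these data known. Genes named outside the cluster were up to 4 called genes with the lowest p per list (up to 2 where none was called), the neighbours and the 5 most alike genes. SAUR75, LHCB3 and the ratios between members were chosen outside that rule, after their values were seen. Pool 1 held all libraries of WT and SA187, ACC shoot replicate 1 and KMBA shoot replicates 1 and 2, pool 3 the other ACC and KMBA shoots, pool 2 the KMBA roots and pool 4 the ACC roots. The alternatives tried were no filter on low values, a pseudocount of 0.1, scaling by median ratios, no variance trend, a fit of only the 2 groups, the pool or the replicate number as a covariate, subtraction of a lowess trend (span 0.3) on length and GC, leaving out each library, and, added after seeing the data, leaving out WT replicates 1 and 3. Same-numbered libraries did not deviate together in every pair (correlations from -0.17 to 0.34), so the numbers were not taken as pairs.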

Additional observations from a re-analysis of the deposited data

Results flagged for a closer look

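SAUR65 was flagged because the ACC to KMBA difference was not the same in roots and shoots in the fit of both organs: roots minus shoots was -0.75 on the log2(FPKM + 1) scale. The difference in shoots was 0.76, at 5.01 to 6.09 FPKM with ACC, against 2.15 to 3.48 FPKM with KMBA. In roots SAUR65 had 0 to 0.177 FPKM with ACC, against 0.0350 to 0.0661 FPKM with KMBA, so there was almost no level to differ in. With a pseudocount of 0.1 the call was lost. No group had the 4 libraries that a check for a library far from the others needs.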

How the results depend on the processing

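Counts of cluster members called against WT were 2 with SA187, 3 with KMBA and 3 with ACC, all lower. With the length and GC trend subtracted they were 0, 0 and 1 (SAUR63, lower), and with only the 2 groups compared 0 for SA187. Leaving out 1 library gave counts of 0 to 3, 2 to 5 and 2 to 4. With WT replicates 1 and 3 left out, of the members called only SAUR63 with ACC stayed over 2-fold lower (-1.10). In that setting SAUR65 with ACC differed by 1.01, in the other direction. The organ difference had 1 member, and 0 with a pseudocount of 0.1. Roots against shoots kept 6 called members in all settings, and comparisons among ACC, KMBA and SA187 kept 0. The 6 entered the main fit only through their shoot values, so nothing is read from that count. Over all genes, calls for SA187 against WT numbered 254, and 140 with no filter, 10 with only the 2 groups, 18 with WT replicates 1 and 3 left out and 12 to 725 leaving out 1 library. KMBA against WT had 485, and 778 with a pseudocount of 0.1, 292 with only the 2 groups, 60 with WT replicates 1 and 3 left out and 279 to 987 leaving out 1 library. ACC against WT had 769, and 1299 with a pseudocount of 0.1 and 628 to 1216 leaving out 1 library. ACC against SA187 had 279, with 443 and 172 to 283, ACC against KMBA shoots 125, with 51 to 120 leaving out 1 library, ACC against KMBA roots 216, and 391 with a pseudocount of 0.1, KMBA against SA187 0, with 0 to 1 leaving out 1 library, and the organ difference 1895, with 1227 to 1985. The causes were not tested. With the replicate block the members called stayed at 2, 3 and 3, and the genes called were 279, 503 and 781 for SA187, KMBA and ACC against WT. Of 1144 recomputed member differences, over all comparisons and settings, 111 moved by more than the spread between libraries and 0 calls reversed. The moves gathered in the differences from WT. With the length and GC trend subtracted every member moved with KMBA and ACC, and SAUR61, SAUR65 and SAUR68 with SA187. With WT replicates 1 and 3 left out all tested members moved with KMBA and ACC, and all but SAUR66 with SA187. The pool could not be fitted beside the groups in root comparisons.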
